A study of Mus musculus with 2 samples.

Results

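Granins are acidic proteins of the regulated secretory pathway. They are packed with hormones into dense-core granules, take part in granule formation, and are cut into peptides. Receptor-type tyrosine phosphatase-like proteins sit in the granule membrane and are known as autoantigens of pancreatic islets. Endocrine cells of the anterior and intermediate pituitary store hormones in such granules, and each hormone cell type is named after the hormone it releases. The 8 genes described here are Chga, Chgb, Scg2, Scg3 and Vgf, which encode granins, Resp18, which encodes a luminal protein of the secretory pathway of endocrine cells, and Ptprn and Ptprn2, which encode the granule membrane proteins also called IA-2 and phogrin. They were taken by gene symbol, and all 8 were found among the 28693 genes counted.

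The cells came from 2 pools of 3 pituitary glands each, taken from individually housed male C57BL/6 mice that were 7 weeks old and dispersed with collagenase and trypsin, with 1 single-cell library per pool. The labels name no mutation, treatment or second condition. Animals of a pool cannot be told apart, so the replicate is the pool (n = 2). The p-values measure only how far differences between classes varied from pool to pool, estimated over all classes in 1 fit. Transcripts were counted as unique molecular identifiers (UMIs), short tags that mark single captured molecules at the 3′ end. The comparisons were made between cell classes of the same glands: hormone classes (somatotrope-like, lactotrope-like, gonadotrope-like, corticotrope-like and melanotrope-like cells, which make growth hormone, prolactin, the gonadotropins and, in the last 2, products of proopiomelanocortin), cycling cells, and non-endocrine classes (stem-like, fibroblast-like, macrophage-like, pituicyte-like and endothelial-like cells). No member was used to define a class. Thyrotrope-like cells formed no class of their own in the clustering used, and are described at the end.

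The libraries held 70813117 and 78861988 UMIs in 6546 and 7117 barcodes, of which 6011 and 6524 were used, and 54 barcode sequences occurred in both libraries. Classes ranged from 2500 and 2505 somatotrope-like cells to 22 and 33 pituicyte-like cells in pools 1 and 2. Hormone transcripts took 50.0% and 48.6% of all UMIs, so every level below is given in CPM, here UMIs per 1000000 UMIs outside 7 hormone genes. Droplets also hold free RNA: Gh, the growth hormone gene, reached 137839 and 72561 CPM even in endothelial-like cells. Endothelial-like cells, which are not endocrine, are set beside each member for comparison. They do not give 1 background for every member, since hormone-cell markers were spread unevenly: the 7 gonadotrope markers summed to 9565 and 12873 CPM in stem-like cells, 2380 and 5336 CPM in fibroblast-like cells, 1409 and 366 CPM in macrophage-like cells and 350 and 1178 CPM in pituicyte-like cells, against 424 and 374 CPM in endothelial-like cells. The endothelial-like cells' own 7 markers summed to 11841 and 11331 CPM there and to 20.4 and 22.2 CPM in somatotrope-like cells.

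Promoters of 7 of the 8 members, all but Vgf, are in the RefSeq table for GRCm38.p6. The cyclic AMP response element is a well-known control element of granin genes, so the 120 bases before each transcription start were searched on both strands for TGACGTCA, which reads the same on both strands, and for the variant TGACGTAA. Of all 32851 promoter entries, 1.24% held the first motif in that window and 0.329% the second. Among the members, Scg2 and Chgb held the first and Chga the second. Whether the motifs have a part in the levels of these genes was not tested. The 3 stretches are shown 5′ to 3′ on the gene's strand with the motif in capitals. It lies 68, 72 and 44 bases before the RefSeq start for Scg2, Chgb and Chga.
Scg2, chr1:79440076-79440105, minus strand: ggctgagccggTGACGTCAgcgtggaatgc
Chgb, chr2:132781559-132781588, plus strand: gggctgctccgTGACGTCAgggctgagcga
Chga, chr12:102554886-102554915, plus strand: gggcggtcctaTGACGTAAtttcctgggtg
Gene positions given below are those of the GENCODE annotation on the same build (GRCm38, mm10). In that annotation the Scg2 and Chgb genes start further upstream, so the motif lies within the bounds of the gene there. Whether it lies in an exon was not checked. Scg2 and Chgb carry the same 8 letters, and their levels peaked in different classes, as described below. The Scg3, Resp18, Ptprn and Ptprn2 entries held neither motif in this window, which says nothing about any factor.

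All 8 members were higher in the hormone classes than in the non-endocrine classes, where 49.1% of the 12442 genes tested passed in either direction and 32.6% were higher (edgeR's quasi-likelihood test, Benjamini-Hochberg adjusted p under 0.05). The median log2 difference of the members was 3.11, against 0.19 over all genes tested. Of all calls in this comparison 66.4% were higher, against 45.3% with DESeq2, which also put the median of all genes lower, by -0.23. A log2 difference between groups of classes here is the difference of the mean log2 levels of the classes. Resp18 averaged 2651 and 2529.8 CPM over the hormone classes, against 306 and 253 CPM over the non-endocrine classes, a log2 difference of 3.18 ± 0.06 (SE, adjusted p = 1.61e-31). The lowest hormone class still had 3.78 times the Resp18 level of the highest non-endocrine class. For Chga, Chgb and Scg2 the ranges overlapped: Chga averaged 148 ± 8.22 CPM in somatotrope-like cells and 270.4 ± 4.68 CPM in stem-like cells (SD, n = 2 pools each), which also had the highest gonadotrope marker sum of the non-endocrine classes. Vgf was at the limit of detection outside the endocrine cells, with 4 and 3 UMIs in all non-endocrine cells of pools 1 and 2, against 291 and 408 UMIs in hormone cells. The non-endocrine level was 1.18 CPM in pool 1 (exact 95% interval 0.322 to 3.03) and 0.816 CPM in pool 2 (0.168 to 2.39), against 12.8 and 15.3 CPM in hormone cells. These intervals cover counting error only. By class, Vgf overlapped too: gonadotrope-like cells had 5.04 and 3.11 CPM, against 3.61 and 2.75 CPM in macrophage-like cells, from 1 UMI in each pool.

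**Figure D1:**
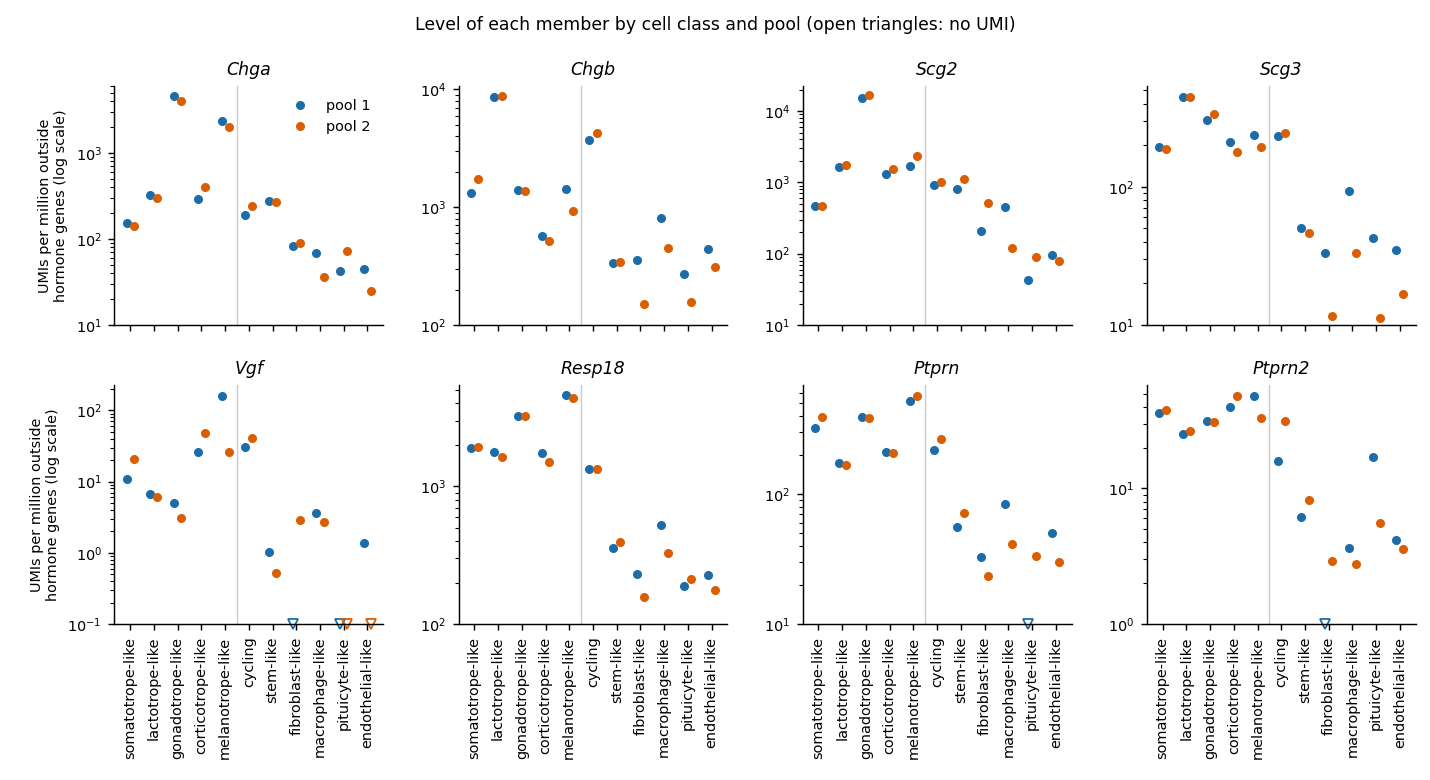
Level in CPM (log axes) for each member in 11 cell classes, with 1 point per pool (blue pool 1, orange pool 2) and open triangles at the lower edge where a pool had no UMI. Hormone classes stand left of the grey line, and the class with the highest points differs between members: gonadotrope-like cells for Chga and Scg2, lactotrope-like cells for Chgb and Scg3, melanotrope-like cells for Resp18 and Ptprn.

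Chga encodes chromogranin A, the founding granin (ENSMUSG00000021194, chr12:102554969-102565028, plus strand, 8 exons). Gonadotrope-like cells had 4631 and 4052 CPM in pools 1 and 2, melanotrope-like cells 2337 and 1973 CPM, corticotrope-like cells 288 and 398 CPM, lactotrope-like cells 328 and 302 CPM and somatotrope-like cells 154 and 142 CPM. The first and second classes stood apart from all others in both pools, while corticotrope-like and lactotrope-like cells overlapped. Gonadotrope-like cells were 3.33 ± 0.09 higher on the log2 scale than the mean of the other hormone classes (adjusted p = 6.75e-13), and melanotrope-like cells 2.06 ± 0.11 higher (adjusted p = 2.31e-09). Somatotrope-like cells fell by 2.76 on the log2 scale (SE 0.13, adjusted p = 2.33e-10). Of the 10 pairs of hormone classes, 9 differed in Chga, the exception being lactotrope-like against corticotrope-like cells (log2 difference -0.14 ± 0.15, adjusted p = 0.553). Over the 10 pairs, the share of all genes called was 46.5% for somatotrope-like against lactotrope-like cells, 47.3% against gonadotrope-like, 38% against corticotrope-like and 28.7% against melanotrope-like cells. It was 45.2% for lactotrope-like against gonadotrope-like, 37% against corticotrope-like and 25.2% against melanotrope-like cells. Gonadotrope-like cells gave 30.7% against corticotrope-like and 23.4% against melanotrope-like cells, and corticotrope-like against melanotrope-like cells 20.5%. Against these shares, Chga, Resp18 and Ptprn were called in 9, 8 and 8 of the pairs, Chgb, Scg2 and Scg3 in 7 each, Vgf in 5 and Ptprn2 in 2. Some pair calls were lost under other settings. Resp18 in somatotrope-like against corticotrope-like cells lost its call with DESeq2 (adjusted p = 0.151), without the pool as a block (0.100), when cells called doublets stayed in (0.211) and when cells were clustered on variable genes (0.296). Resp18 in gonadotrope-like against melanotrope-like cells lost its call when cells called doublets stayed in (adjusted p = 0.0907) and with variable genes (0.177), as did Chgb in corticotrope-like against melanotrope-like cells (0.0952 and 0.242). With variable genes the call was also lost for Scg3 in gonadotrope-like against melanotrope-like cells (adjusted p = 0.152) and in lactotrope-like against gonadotrope-like cells (0.0687), and for Chgb in gonadotrope-like against corticotrope-like cells (0.0571). Vgf in gonadotrope-like against corticotrope-like cells lost its call with no filter on low counts (adjusted p = 0.0585) and with mixed cells left out (0.0740).

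Scg2 encodes secretogranin II, the precursor of secretoneurin (ENSMUSG00000050711, chr1:79434669-79440120, minus strand, 2 exons). It was the most unequal member, with 15388 and 16772 CPM in gonadotrope-like cells. Melanotrope-like cells followed with 1707 and 2335 CPM, lactotrope-like cells with 1661 and 1726 CPM, corticotrope-like cells with 1328 and 1520 CPM, and somatotrope-like cells with 469 and 470 CPM. The gonadotrope-like mean was 7.96 times that of the next class and 34.2 times that of somatotrope-like cells. The log2 difference from the other hormone classes was 3.71 ± 0.19 (adjusted p = 2.57e-08) in gonadotrope-like cells and -2.66 ± 0.27 (adjusted p = 8.31e-06) in somatotrope-like cells. The 3 classes between did not differ from each other past the test, with adjusted p between 0.329 and 0.638.

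Chgb encodes chromogranin B (ENSMUSG00000027350, chr2:132781278-132795079, plus strand, 5 exons), and its order of classes was another. Lactotrope-like cells had 8611 and 8769 CPM. Somatotrope-like cells had 1333 and 1723 CPM, gonadotrope-like cells 1401 and 1367 CPM, melanotrope-like cells 1440 and 923 CPM, and corticotrope-like cells 568 and 514 CPM. The lactotrope-like mean was 5.69 times the next one, and the log2 difference from the other hormone classes was 3.02 ± 0.17 (adjusted p = 5.46e-08). Corticotrope-like cells fell by 2.00 on the log2 scale (SE 0.24, adjusted p = 6.98e-05), while the 3 classes between overlapped and no pair of them passed the test. For somatotrope-like cells the sign of the difference from the other classes depended on the pool, at -0.41 in pool 1 and 0.16 in pool 2.

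Scg3 encodes secretogranin III, which binds chromogranin A and cholesterol-rich granule membranes (ENSMUSG00000032181, chr9:75643189-75684056, minus strand, 12 exons). It varied little, from 447 and 443 CPM in lactotrope-like cells and 305 and 336 CPM in gonadotrope-like cells to 195 and 187 CPM in somatotrope-like cells. Melanotrope-like cells had 237 and 195 CPM and corticotrope-like cells 211 and 180 CPM, so the 3 lowest classes overlapped. The log2 difference from the other hormone classes was 0.98 ± 0.08 in lactotrope-like cells (adjusted p = 3.06e-15) and 0.40 ± 0.09 in gonadotrope-like cells (adjusted p = 0.000361). The highest hormone class had 2.33 times the level of the lowest, against 29.3 times for Chga and 16.1 times for Chgb.

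Vgf encodes a granin-related precursor induced by nerve growth factor (ENSMUSG00000037428, chr5:137026392-137033351, plus strand). It was scarce in every class. Melanotrope-like cells had 158 and 26.2 CPM, corticotrope-like cells 25.7 and 47.7 CPM, somatotrope-like cells 11 and 20.9 CPM, lactotrope-like cells 6.68 and 6.02 CPM, and gonadotrope-like cells 5.04 and 3.11 CPM. The melanotrope-like value of pool 1 rested on few cells: of 76 UMIs, a single cell held 42 and the next 12. That cell had 18792 UMIs, of which 1.14% came from hormone genes, against class medians of 6621 UMIs and 42.6%. Without it, pool 1 stood at 73.6 CPM, above the 26.2 CPM of pool 2. The log2 difference of melanotrope-like cells from the other hormone classes was 2.94 ± 0.66 (adjusted p = 0.0108) with the cell and 2.07 ± 0.46 (adjusted p = 0.00374) without it. By pool, with the cell, the melanotrope-like difference was 3.99 in pool 1 and 1.16 in pool 2. Leaving the cell out also brought corticotrope-like cells past the test (1.67, adjusted p = 0.00260, against 1.45 and adjusted p = 0.135 with it). Gonadotrope-like cells, highest in Chga and Scg2, were lowest in Vgf (log2 difference -2.56 ± 0.83, adjusted p = 0.0377, which misses the threshold at 0.0586 with no filter on low counts and at 0.0760 with mixed cells left out).

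Resp18 encodes a glucocorticoid-responsive protein, first found in neuroendocrine cells of the rat, whose sequence resembles the luminal part of Ptprn (ENSMUSG00000033061, chr1:75272199-75278415, minus strand, 6 exons). Melanotrope-like cells had 4604 and 4356 CPM, gonadotrope-like cells 3262 and 3258 CPM, somatotrope-like cells 1884 and 1927 CPM, lactotrope-like cells 1763 and 1619 CPM, and corticotrope-like cells 1741 and 1489 CPM. The 2 highest classes were clear of each other and of the rest in both pools, whereas the lactotrope-like and corticotrope-like ranges overlapped. The log2 difference from the other hormone classes was 1.14 ± 0.07 in melanotrope-like cells (adjusted p = 2.90e-15) and 0.57 ± 0.07 in gonadotrope-like cells (adjusted p = 2.42e-08).

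Ptprn encodes IA-2, a membrane protein of dense-core granules with an inactive phosphatase domain (ENSMUSG00000026204, chr1:75247027-75264502, minus strand, 23 exons). It lies next to Resp18 on the same strand, with 7696 bases and no annotated gene between. Melanotrope-like cells had 516 and 564 CPM, gonadotrope-like cells 390.1 and 381 CPM, somatotrope-like cells 322 and 389 CPM, corticotrope-like cells 209 and 206 CPM, and lactotrope-like cells 172 and 167 CPM. Melanotrope-like cells were clear of the others in both pools, gonadotrope-like and somatotrope-like cells overlapped, and lactotrope-like cells were lowest. The log2 difference was 1.04 ± 0.10 in melanotrope-like cells (adjusted p = 2.49e-12) and -1.05 ± 0.09 in lactotrope-like cells (adjusted p = 9.10e-15). Over the mean levels of the 11 classes, Ptprn and Resp18 followed each other with Pearson r = 0.97 on the log2(CPM + 1) scale, and over the 5 hormone classes with r = 0.88. Members on different chromosomes came near these values. Chga and Scg2 had r = 0.93 over the 11 classes and 0.88 over the 5 hormone classes. Scg3 and Resp18 had r = 0.93 over the 11 classes, but -0.08 over the 5 hormone classes. These are descriptions over classes that share libraries. An antisense gene overlaps each of them, and nothing in the sources used here says how such reads were assigned.

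Ptprn2 encodes phogrin, the close relative of IA-2 (ENSMUSG00000056553, chr12:116485720-117276849, plus strand, 23 exons). It was low and nearly even, from 39.6 and 47.7 CPM in corticotrope-like cells to 25.1 and 26.7 CPM in lactotrope-like cells. Melanotrope-like cells had 47.9 and 32.8 CPM, somatotrope-like cells 36.0 and 37.9 CPM, and gonadotrope-like cells 31.2 and 31.1 CPM, so the first 3 overlapped, while gonadotrope-like and lactotrope-like cells lay below them and clear of each other. Only 2 of the 10 pairs of hormone classes passed the test in Ptprn2. Lactotrope-like cells were lower than corticotrope-like cells, and somatotrope-like cells higher than lactotrope-like cells. The highest class mean was 1.69 times the lowest.

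**Figure D2:**
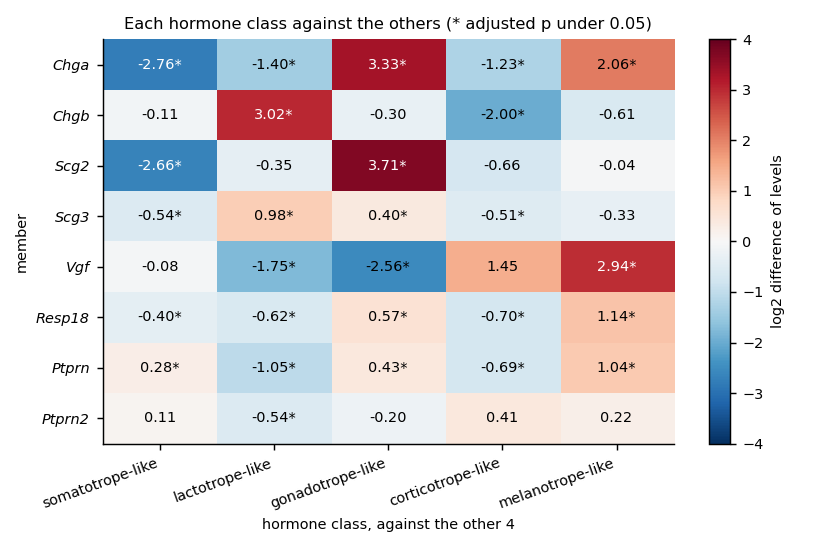
Log2 difference of each hormone class from the mean of the other 4, by member, with red for higher and blue for lower and a star for an adjusted p under 0.05. No class has the same pattern as another: lactotrope-like cells stand out in Chgb at 3.02, gonadotrope-like cells in Chga at 3.33 and Scg2 at 3.71, melanotrope-like cells in Chga at 2.06 and Resp18 at 1.14.

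By class, gonadotrope-like cells had 5 members higher and 1 lower, with 35.8% of all genes called, 19.6% higher and 16.2% lower. Lactotrope-like cells had 2 higher and 5 lower (40.7% of all genes called, 16.2% higher and 24.5% lower). Somatotrope-like cells had 1 higher and 4 lower (44.8% called, 25.8% higher and 19% lower), corticotrope-like cells none higher and 5 lower (28.8% called, 17.6% higher and 11.3% lower), and melanotrope-like cells 4 higher and none lower (18.5% called, 12.1% higher and 6.36% lower). With TMM scaling on all genes, 59.8% of all calls in lactotrope-like cells were higher, against 39.7% without it, 49.9% against 65.6% in melanotrope-like cells and 50.6% against 60.9% in corticotrope-like cells. Corticotrope-like cells were lower in Chgb, Chga, Scg3, Resp18 and Ptprn, and their Scg2 difference missed the threshold (-0.66 ± 0.25, adjusted p = 0.0698), which it passed with either TMM scaling (adjusted p = 0.0292 and 0.0406) and with doublet calls kept (adjusted p = 0.0334). In melanotrope-like cells the count of members lower depended on the scaling. Chgb was lower there with TMM on all genes (-0.72, adjusted p = 0.0351), with TMM outside the hormone genes (-0.72, adjusted p = 0.0352) and with DESeq2 (-0.61, adjusted p = 0.0372). Scg3 was lower there with TMM on all genes (-0.45, adjusted p = 0.00244), with TMM outside the hormone genes (-0.45, adjusted p = 0.00294), with no filter on low counts (-0.33, adjusted p = 0.0217), with mixed cells left out (-0.34, adjusted p = 0.0142) and without the cell richest in Vgf (-0.36, adjusted p = 0.0330). Among the calls counted above, Vgf in lactotrope-like cells missed the threshold with TMM on all genes (adjusted p = 0.0514), with no filter (0.0571) and with mixed cells left out (0.0670). Ptprn, the 1 member higher in somatotrope-like cells, missed it with DESeq2 (adjusted p = 0.111). With clustering on variable genes, calls were lost for Resp18 in somatotrope-like cells (adjusted p = 0.140), Scg3 in gonadotrope-like cells (0.0933) and Scg3 in corticotrope-like cells (0.0722), and Ptprn2 passed as higher in corticotrope-like cells (0.0238).

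Summed over the 8 genes, gonadotrope-like cells had 25413 and 26200.1 CPM, lactotrope-like cells 13013 and 13058 CPM, melanotrope-like cells 11047 and 10405 CPM, somatotrope-like cells 4404 and 4898 CPM and corticotrope-like cells 4409 and 4401 CPM. The sums of endothelial-like cells were 894 and 639.7 CPM. Hormone transcripts took 61.4% of all UMIs in somatotrope-like cells, 43.3% in melanotrope-like, 36.8% in lactotrope-like, 22.6% in gonadotrope-like and 11.1% in corticotrope-like cells, an order unlike that of the granin sums. Counted against all UMIs, hormone genes included, Resp18 averaged 735 per 1000000 in somatotrope-like cells, where its CPM averaged 1906. On that scale somatotrope-like cells were lowest in Resp18, below lactotrope-like cells at 1069.8 and corticotrope-like cells at 1434. The order changed for other members too. Ptprn averaged 137 in somatotrope-like cells, below corticotrope-like cells at 184 but above lactotrope-like cells at 107. Chgb averaged 590 in somatotrope-like cells, below gonadotrope-like cells at 1071 and melanotrope-like cells at 673, but above corticotrope-like cells at 480.

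The balance of Chga, Chgb and Scg2 within a class, taken as each gene's percentage of the UMIs of all 3, differed among the hormone classes. In gonadotrope-like cells Scg2 made up 71.8% and 75.6% in pools 1 and 2 and Chga 21.6% and 18.3%. In lactotrope-like cells Chgb made up 81.2% in both pools, and in somatotrope-like cells 68.1% and 73.8%. Corticotrope-like cells were led by Scg2 with 60.8% and 62.5%. In melanotrope-like cells no gene led in both pools, with Chga at 42.6% and 37.7% and Scg2 at 31.1% and 44.6%. Endothelial-like cells, with 417 and 346 UMIs of the 3 genes, had 75.8% and 74.6% Chgb, near the somatotrope-like share. Stem-like cells had 56.7% and 65.0% Scg2, near the corticotrope-like share. The balance thus did not tell every class from every other. A UMI counts 1 captured molecule, and capture may differ between genes.

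**Figure D3:**
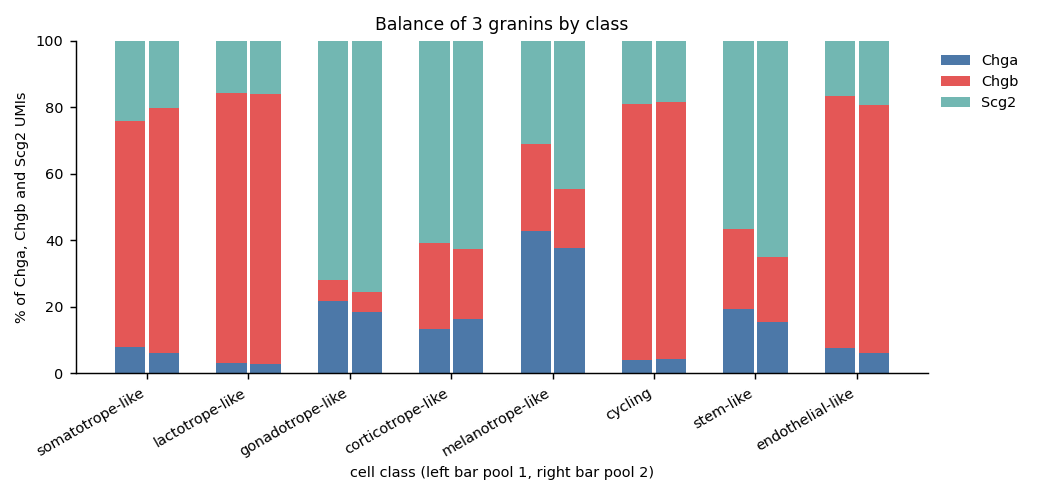
Percentage of the summed Chga, Chgb and Scg2 UMIs that each gene made up in 8 classes, with the left bar for pool 1 and the right bar for pool 2. Chgb fills 81.2% of the lactotrope-like bars, Scg2 71.8% and 75.6% of the gonadotrope-like bars, and the melanotrope-like bars are mixed.

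Because classes differ in number and level, a small class could hold most transcripts of a member. Gonadotrope-like cells were 4.25% of the cells used and held 6.18% of UMIs outside hormone genes. They held 53.7% and 53.3% of Scg2 UMIs and 53.0% and 52.3% of Chga UMIs in pools 1 and 2. Lactotrope-like cells, 24.6% of cells, held 63.5% and 63.4% of Chgb UMIs and 41.5% and 46.3% of Scg3 UMIs. Somatotrope-like cells, 40.0% of cells, held 46.2% and 48.3% of Ptprn UMIs, but 10.6% of Chga UMIs in both pools and 9.83% and 8.62% of Scg2 UMIs.

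**Figure D4:**
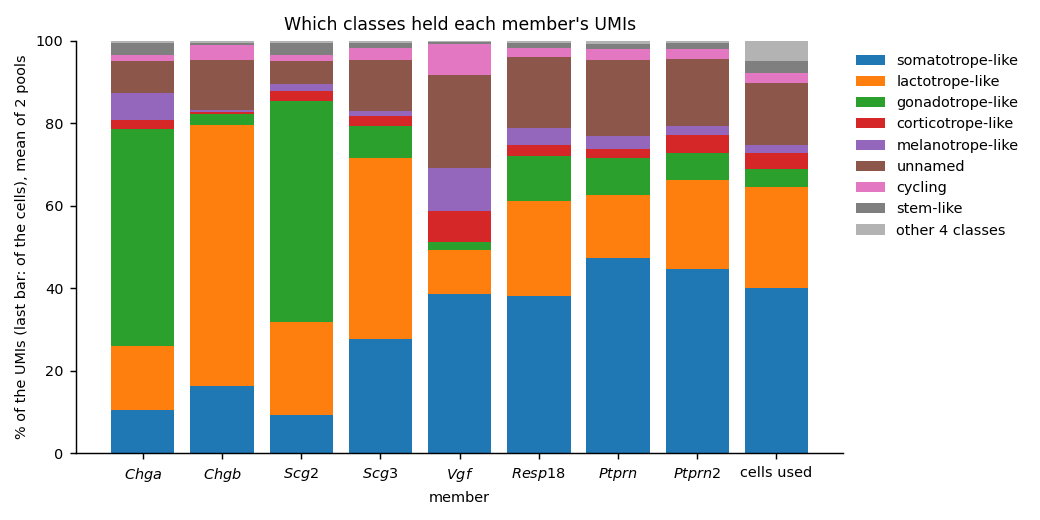
Percentage of each member's UMIs found in each class, as the mean of the 2 pools, with the percentage of cells in the last bar. Gonadotrope-like cells hold 53.5% of Scg2 UMIs and 52.6% of Chga UMIs with 4.25% of the cells.

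To compare how many cells carried a transcript, each cell was thinned to 1000 UMIs outside hormone genes, which left out 79 and 15 somatotrope-like cells and 5 others as too shallow. Chgb was found in 98.6% of lactotrope-like cells of pool 1 and 98.9% of pool 2, against 15.4% and 15.3% of endothelial-like cells. Scg2 was found in 99.6% of gonadotrope-like cells in both pools, against 5.38% and 4.00% of endothelial-like cells. Chga was found in 91.9% and 89.1% of gonadotrope-like, 77.7% and 72.6% of melanotrope-like and 12.1% and 11.2% of somatotrope-like cells, against 4.62% and 2.67% of endothelial-like cells. Resp18 ran from 55.0 ± 3.18% of lactotrope-like to 97.8 ± 3.14% of melanotrope-like cells, against 11.3 ± 3.66% of endothelial-like cells. Vgf reached at most 3.05 ± 1.17% in melanotrope-like cells at this depth. It was found in 0 of 130 and 0 of 150 endothelial-like cells, which by the limit of 3 counts of the total allows a share of up to 2.31% and 2.00%, so no difference in Vgf between these classes can be read from the shares. Without thinning, Chga was found on average in 42.9% of somatotrope-like cells at a median of 4822 and 5128 UMIs outside hormone genes, and in 13.8% of endothelial-like cells at 4630 and 4267.

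**Figure D5:**
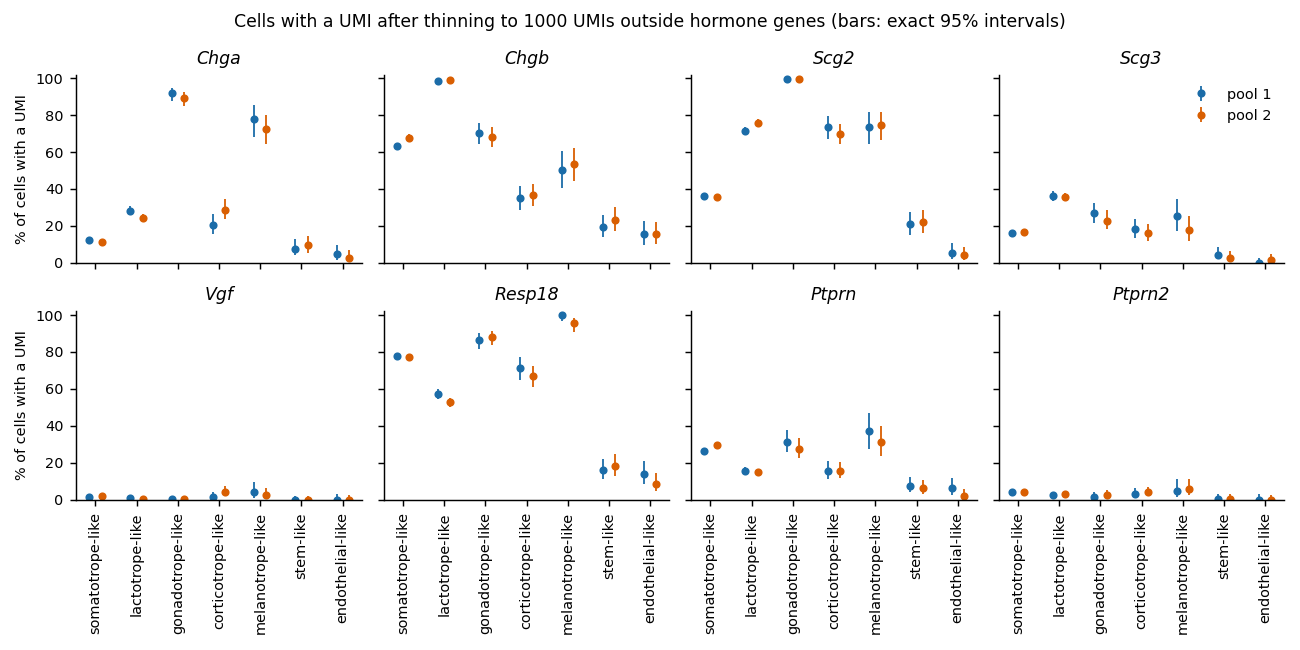
Percentage of cells with at least 1 UMI of each member after thinning to 1000 UMIs outside hormone genes, with exact binomial 95% intervals, for 5 hormone classes, stem-like cells and endothelial-like cells in pool 1 (blue) and pool 2 (orange). Chgb reaches 98.6% and 98.9% in lactotrope-like cells and Scg2 99.6% in gonadotrope-like cells, while Vgf and Ptprn2 stay low in all classes.

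Within classes, members varied together to different degrees. Over gonadotrope-like cells the Pearson correlation of log-transformed levels was 0.62 and 0.58 in pools 1 and 2 between Chga and Scg2, 0.62 and 0.56 between Scg2 and Resp18, and 0.53 and 0.47 between Chga and Resp18 (258 and 275 cells). In lactotrope-like cells the highest was 0.49 and 0.50, between Chgb and Scg2 (1390 and 1707 cells). In melanotrope-like cells it was 0.35 and 0.45, between Scg2 and Ptprn. Of the 28 gene pairs, 6 had r above 0.2 in both pools in gonadotrope-like and in melanotrope-like cells, 2 in lactotrope-like cells, and none in somatotrope-like or corticotrope-like cells, where the highest mean r was 0.17 and 0.20. With only cells of at least 3000 UMIs the melanotrope-like count was 13 and the lactotrope-like count 1. Cells of a library share free RNA and differ in depth, so these are descriptions.

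The somatotrope-like class held 11 clusters and the lactotrope-like class 7. Chgb ran from 6755 to 10444 CPM over the lactotrope-like clusters, and every one of these lay above the highest somatotrope-like cluster at 1772 CPM. Chga ran from 109 to 424 CPM over the somatotrope-like clusters. The upper end was a cluster of 425 cells led by Cck, Gata2 and Nr5a1. Gata2 is on both the gonadotrope and the thyrotrope marker list, and Nr5a1 on the gonadotrope list. Cck was also among the leading genes of the Tshb-led unnamed cluster described at the end. Plvap, an endothelial marker, was among the leading genes of the 425 cells too. They had 444 and 403 CPM of Chga in pools 1 and 2, and in 94.6% of them Gh made up more than 30% of UMIs. Whether mixed cells have a part in this was not tested. The other somatotrope-like clusters lay at or below 146 CPM.

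Stem-like cells, led by Cyp2f2, Lcn2 and Aldh1a2, were lower than the hormone classes in all 8 members, with 56.5% of all genes called and 22.5% lower. The differences ran from -1.10 ± 0.25 for Scg2 (adjusted p = 0.00258) to -2.66 ± 0.09 for Resp18 (adjusted p = 1.62e-23), leaving Vgf aside at 2 and 1 UMIs, whose call was lost with mixed cells left out (adjusted p = 0.0532). They were above endothelial-like cells in 5 members, with 46.2% of all genes called and 27.1% higher. Scg2 had 799 and 1128 CPM in stem-like cells, against 95.6 and 80.0 CPM in endothelial-like cells (log2 difference 3.46 ± 0.43, adjusted p = 4.04e-05). Chga had 274 and 267 CPM, against 44.3 and 25.1 CPM (2.99 ± 0.26, adjusted p = 3.03e-07). Chgb had 336 and 340 CPM, against 438 and 308 CPM, which did not pass (adjusted p = 0.783). Except for Gata2 and Foxl2, markers of gonadotropes, the class highest in Scg2 and Chga, were higher in stem-like than in endothelial-like cells too. They did not all follow Scg2 between pools. Fshb had 514 and 453 CPM in stem-like cells, against 5.54 and 7.16 CPM in endothelial-like cells. Of the 7 markers 6 had UMIs in both classes, and Foxl2 was at 0, as it was in gonadotrope-like cells. Cga had 6813 and 9283 CPM in stem-like cells, against 313 and 241 CPM in endothelial-like cells, and Lhb 2194 and 3105 CPM, against 56.8 and 66.8 CPM. Gnrhr, the receptor for gonadotropin-releasing hormone, had 26.5 and 18.5 CPM, against 1.39 and 1.19 CPM, and its gonadotrope-like level was 436 and 414 CPM. Gata2 alone was lower, at 8.65 and 6.66 CPM in stem-like cells, against 45.7 and 57.3 CPM. Gh was 100917 and 74006 CPM in stem-like cells, against 137839 and 72561 CPM in endothelial-like cells. The part of gonadotrope RNA in the Scg2 and Chga differences was not tested. Thinned to equal depth, Scg2 was in 21.0% and 22.1% of stem-like cells and in 5.38% and 4.00% of endothelial-like cells. With doublet calls kept, 2 members passed, Chga and Scg2. With clustering on variable genes Scg3 did not pass (adjusted p = 0.0720).

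Fibroblast-like cells were above endothelial-like cells in Chga and Scg2 (25.4% of all genes called, 12.7% higher), macrophage-like cells in Resp18 and Scg3 (34.2%, 8.1% higher), and pituicyte-like cells in none (25.3%). Scg2 had 211 and 510 CPM in fibroblast-like cells, against 95.6 and 80.0 CPM in endothelial-like cells (log2 difference 2.06 ± 0.54, adjusted p = 0.0163). The gonadotrope marker sum was higher too, at 2380 and 5336 CPM in fibroblast-like cells, against 424 and 374 CPM in endothelial-like cells, and like Scg2 it was higher in pool 2. Cga had 1555 and 4266 CPM in fibroblast-like cells, against 313 and 241 CPM, and Fshb 16.5 and 216 CPM, against 5.54 and 7.16 CPM. Cga is also on the thyrotrope marker list. Lhb was higher than in endothelial-like cells but nearly level between pools, at 759 and 796 CPM, against 56.8 and 66.8 CPM. Gata2 was near the endothelial-like level, at 49.5 and 52.5 CPM, against 45.7 and 57.3 CPM. Gnrhr had 0 and 5.83 CPM, against 1.39 and 1.19 CPM. Of the 7 markers 5 had UMIs in the fibroblast-like class, Nr5a1 and Foxl2 being at 0. Clustering on variable genes ended both calls (adjusted p = 0.0868 for Scg2 and 0.196 for Chga), and resolution 0.5 ended that of Chga (adjusted p = 0.0522). Resp18 had 527 and 327 CPM in macrophage-like cells, against 226 and 177 CPM in endothelial-like cells (1.06 ± 0.15, adjusted p = 4.61e-07), and Gh was higher as well, at 302203 and 147836 CPM in macrophage-like cells, against 137839 and 72561 CPM. The part of free or mixed-in RNA in these differences was not tested. With doublet calls kept no member passed in macrophage-like cells.

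Cycling cells, which express mitotic genes such as Top2a and Cdk1, differed from the mean of the hormone classes in 6 members, with 31.9% of all genes called, 21.8% higher and 10.1% lower. Chgb was higher, with 3699 and 4255 CPM in cycling cells, against a mean of 2670.5 and 2659 CPM over the hormone classes (log2 difference 1.29 ± 0.18, adjusted p = 0.000190). Chga fell by 1.65 (SE 0.14, adjusted p = 4.09e-07), Scg2 by 1.09 (SE 0.25, adjusted p = 0.00644) and Resp18 by 0.83 (SE 0.08, adjusted p = 9.34e-11) on the log2 scale, and Ptprn and Ptprn2 were also lower. Ptprn lost its call with doublet calls kept (adjusted p = 0.0619), at resolution 0.5 (0.0878) and with clustering on variable genes (0.406). Ptprn2 lost its call with no filter on low counts (adjusted p = 0.0645), without the pool as a block (0.0518) and with variable genes (0.0557). Scg3, not called before, passed as lower with TMM on all genes (adjusted p = 0.0400), with doublet calls kept (0.000443) and at resolution 0.5 (0.00136), and Vgf as higher without the cell richest in it (0.0109). The class joined a cluster of 221 cells, 79.2% of them high in Gh, and a cluster of 89 cells led by Prl among others. Chgb was at 2489 CPM in the first and at 8692 CPM in the second, where somatotrope-like cells averaged 1528 CPM and lactotrope-like cells 8689.8 CPM. Chga was at 194 and 294 CPM there, against 148 CPM in somatotrope-like and 315 CPM in lactotrope-like cells. In that order Scg2 was at 733 and 1711 CPM, against 470 and 1694 CPM. Resp18 was lower in both, at 1298 and 1470 CPM, against 1906 and 1691 CPM. These differences were not tested. The mean of the hormone classes also holds gonadotrope-like and melanotrope-like cells, the classes highest in Chga and Scg2. With doublet calls kept, the Chgb difference was 0.44 and did not pass (adjusted p = 0.194), nor did it with variable genes, at 0.63 (adjusted p = 0.163).

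The genes most alike to each member over the 11 class means, among 6178 genes with at least 50 CPM in a class, were named for each member by Pearson r. They are descriptions over classes that share libraries. Scg3 was closest to Scg5 (r = 0.98), which encodes the chaperone 7B2 of a prohormone convertase, and to Sez6l2 (r = 0.98) and St8sia3 (r = 0.96). Chgb was closest to Tubb3 (r = 0.98), Olfm1 (r = 0.93) and Eno3 (r = 0.92), all highest in lactotrope-like cells. Chga was closest to Tmem191c and Dner (r = 0.95 each) and Hes6 (r = 0.93), and Scg2 to Adi1, Dner and Pcsk1 (r = 0.93 each), all highest in gonadotrope-like cells. Resp18 was closest to Snap25, St8sia3 and Sez6l2 (r = 0.98, 0.98 and 0.97), Ptprn to Gng4, Resp18 and Lyrm9 (r = 0.98, 0.97 and 0.97), and Vgf to Syt1, Klk1b26 and Gabrb1 (r = 0.93, 0.93 and 0.91). Ptprn2 stayed under 50 CPM and was not ranked.

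Of 32 tested genes of granule formation and the granule membrane, 24 were higher in the hormone classes and none lower, where 32.6% of all genes were higher and 16.5% lower, with a median log2 difference of 1.70 against 0.19 over all genes. Hid1, which acts in granule sorting at the Golgi, had 49.1 and 48.3 CPM in the hormone classes, against 14.7 and 10.1 CPM in the non-endocrine classes (3.39 ± 0.31, adjusted p = 3.64e-20). Syt4, a synaptotagmin, had 385 and 404 CPM, against 55.2 and 38.1 CPM (3.39 ± 0.19, adjusted p = 1.27e-08). The smallest differences that passed were those of Rab2a (0.69 ± 0.06, adjusted p = 6.87e-25) and Ccdc186 (0.67 ± 0.16, adjusted p = 0.000180), both part of a route of granule maturation. Of 12 tested genes of prohormone processing, 6 (50%) were higher and 4 (33.3%) lower, against 32.6% higher and 16.5% lower over all genes (median 0.62). Scg5 (3.00 ± 0.10, adjusted p = 1.57e-10) and Pcsk1n, an inhibitor of prohormone convertase 1 (2.93 ± 0.08, adjusted p = 2.45e-11), were highest. The lowest were Cpd, a carboxypeptidase of the Golgi (-1.70 ± 0.23, adjusted p = 6.72e-11), and Tpst2, a tyrosine sulfotransferase (-1.10 ± 0.15, adjusted p = 2.63e-11).

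Among the hormone classes these lists did not share a direction. Corticotrope-like cells had 9 of the 12 processing genes lower and none higher (with 11.3% of all genes lower), whereas 7 of 12 were higher in lactotrope-like cells (16.2% of all genes higher) and 7 of 12 in gonadotrope-like cells (19.6% higher), with medians of 0.39 and 0.36. Of 16 immediate early genes, which respond within minutes to stimulation and also to tissue digestion, 15 were higher in corticotrope-like cells, where 17.6% of all genes were (median 1.91 against 0.04 over all genes). In melanotrope-like cells 1 was higher and 9 lower, where 12.1% of all genes were higher and 6.36% lower (median -1.10). Against the non-endocrine classes 6 of the 16 (37.5%) were higher and 2 (12.5%) lower, shares near the 32.6% and 16.5% over all genes. Nr4a2 (4.27 ± 0.79, adjusted p = 0.00115) and Npas4 (3.70 ± 0.37, adjusted p = 1.61e-06) had the largest differences that passed, and Jun (-0.93 ± 0.17, adjusted p = 0.000643) and Ier2 (-0.23 ± 0.09, adjusted p = 0.0304) the lowest.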

How the data were processed

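The deposited matrix holds raw UMI counts per gene and barcode from single-cell 3′ libraries, which the authors deposited. The submitters' processing notes name STAR, Cell Ranger and mm10, and no source used here gives their versions. The number that ends each barcode was taken as the pool number. Barcodes with at least 500 UMIs, 250 genes and at most 20% mitochondrial UMIs were kept, and the 7.6% of cells with the highest Scrublet scores (scanpy 1.11.5) were removed as doublets, since its own threshold called 2 and 6 cells. This removed 494 and 536 cells. Cells were clustered (Leiden, resolution 1, 13 components) on 90 marker genes that include no member, as log1p of counts per 10000 UMIs outside 7 hormone genes (Gh, Prl, Pomc, Lhb, Fshb, Cga and Tshb). Clusters were named from at least 3 markers, and 931 and 933 cells stayed unnamed. Clustering on 2000 variable genes gave the same class to 91.1% of 10665 cells named in both.

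Counts were summed per class and pool and tested with edgeR 4.0.16 (robust quasi-likelihood, library size outside hormone genes, no further scaling, filterByExpr, pool as a block) in 1 fit of 22 columns. It tested 12442 genes, left out 80 markers, and left 10 residual degrees of freedom, with a biological coefficient of variation of 0.0633. Benjamini-Hochberg adjustment ran over all genes of a comparison. The fit was tested on simulated data. DESeq2 1.42.0, TMM scaling, other filters, clusterings and doublet rules were alternatives. Leaving out the cell with most Vgf UMIs was chosen after seeing the data. The members, lists and tests were chosen with earlier results of these data known. Named genes were the members, the 3 genes most alike to each, and the 2 highest and 2 lowest genes of each wider list that passed.

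Intervals are exact, at 95%, and the limit given beside a count of 0 is 3 counts of the total. Both cover counting error only.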

Additional observations from a re-analysis of the deposited data

Results flagged for a closer look

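Thyrotropes, which make thyroid-stimulating hormone, formed no class at the clustering used for the comparisons, so the signal in these cells is outside every test above. At a finer clustering (resolution 2), 38 cells, 9 in pool 1 and 29 in pool 2, made up a cluster led by Tshb, Cga and Dio2. Its Chgb level was 39532 and 35257 CPM in pools 1 and 2 (mean 37395), against 8611 and 8769 CPM in lactotrope-like cells, the highest class above. Resp18 had 10069 and 10859 CPM (mean 10464), against 4604 and 4356 CPM in melanotrope-like cells. Ptprn had 960 and 733 CPM (mean 846), against 516 and 564 CPM in melanotrope-like cells. These 3 members were singled out because both pools of the 38 cells lay above every hormone class, and the difference was not tested. Scg2 stood at 3095 and 2515 CPM and Chga at 646 and 958 CPM, between the classes.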

How the results depend on the processing

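Of 111 member differences that passed the test, over 1174 repeats with a test under other settings, 1134 kept direction and call, 39 kept direction only and 1 reversed. Another 222 values, each from 1 pool alone, had no test and kept the sign. They are parts of the same data that gave the calls, so this is no independent support. The reversal was Scg3 in stem-like against endothelial-like cells, -0.019 with doublet calls kept. Resp18 in fibroblast-like against endothelial-like cells, not called before, reached 0.70 with mixed cells left out, which was a change of sign. Counts of members called moved by over 1.5 times in these cases: cycling cells 3 with clustering on variable genes, stem-like against endothelial-like cells 2 with doublet calls kept, fibroblast-like cells 1 at resolution 0.5 and 0 with variable genes, macrophage-like cells 5 with either TMM scaling, 6 with DESeq2 and 0 with doublet calls kept, and pituicyte-like cells 1 with DESeq2 and 1 with doublet calls kept. Over all genes, DESeq2 called 2624 in macrophage-like against endothelial-like cells, against 4261 before. The cause was not tested. TMM outside hormone genes moved the median of all genes by 0.50 there and by at most 0.22 in size in the other comparisons, and it raised the share of calls that were higher in lactotrope-like cells to 57.2%, against 39.7% before. DESeq2 moved the median by -0.23 in hormone against non-endocrine classes, where 45.3% of calls were higher, against 66.4% before. Without the replicate block, which ties the classes of a pool to the same glands, Scg2 in gonadotrope-like cells was 3.71. In that fit 2 calls were lost, Resp18 in somatotrope-like against corticotrope-like cells (adjusted p = 0.100) and Ptprn2 in cycling cells (adjusted p = 0.0518), and 1 was gained, Scg2 in macrophage-like against endothelial-like cells. With 1 pool left out, the leading differences ranged from 3.69 to 3.74 for Scg2 and 3.24 to 3.43 for Chga in gonadotrope-like cells, 2.95 to 3.09 for Chgb in lactotrope-like cells, and 1.16 to 3.99 for Vgf in melanotrope-like cells, with Resp18 at 1.14 either way. Precision is limited by 2 pools, and for Vgf and Ptprn2 by few UMIs.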

Other observations

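Among cells left without a class, a cluster of 357 cells led by Tshb, Cck and Dio2, of which 83.2% were high in Gh, had 6023 CPM of Chgb and 3404 CPM of Resp18, and its Chga stood at 1040 CPM in pool 1 and 368 CPM in pool 2. A cluster of 114 cells led by Egr4, Tnnt1 and Pomc had 3107 CPM of Chgb and 1482 CPM of Scg2, against 541 and 1424 CPM in corticotrope-like cells. The marker list it matched best was that of lactotropes, and lactotrope-like cells averaged 8689.8 and 1694 CPM of these genes. Whether mixed cells have a part in this was not tested. All unnamed cells together held 12.0% and 12.2% of Chgb UMIs and 21.8% and 23.3% of Vgf UMIs in pools 1 and 2.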
